A study of Mus musculus with 13 samples.

Results

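Single CD8+ T cells responding to an infection in the spleen were compared between day 7 and day 5, before they had been divided into subsets. The comparison took every cell column headed as day 7 bulk, 134 cells, and every one headed as day 5 bulk, 154 cells, which is 288 of the 1449 cells of the study. The responders were OT-1 cells, CD8+ T cells with a transgenic receptor for an ovalbumin peptide, so all of them share 1 specificity. For both days, 5000 CD45.1 OT-1 cells were transferred into wild-type CD45.2 C57BL/6J recipients, which were infected intravenously the next day with 5000 CFU of Listeria monocytogenes expressing ovalbumin. Splenocytes were stained for CD8, CD44, CD4 and myeloid markers, and responders were sorted as single cells. The whole study holds 13 such populations from naive to memory cells, each deposited as 1 sample. The labels do not give the number or age of the mice. Here "unsorted" means not split into memory precursors (Tmp) and short-lived effectors (Tsle), which were also collected on both days.

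An acute infection drives a naive CD8+ T cell to divide many times and to become an effector cell that makes cytotoxic granules, chemokines and interferon gamma. Around the height of the response, most responders carry an effector programme and die later, while a smaller part keeps or regains transcripts linked to long life, such as the transcription factor Tcf7 and the interleukin 7 receptor Il7r. Receptors for interleukin 2 and inflammatory signals feed the effector programme, and the chemokine receptor CXCR3 guides activated T cells into inflamed tissue.

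Each cell was measured for 95 quantitative PCR assays of 94 genes, with Il2 on 2 of them. The deposited values are on the scale of PCR cycles, so a difference of 1 is a doubling if amplification is complete. They grow with the amount of transcript and are 0 where nothing was detected. A pair of readings is therefore given for each gene, the share of cells with a value above 0 and the median value in those cells. With 1 sample a day, no test was run. Shares are given with exact Clopper-Pearson 95% intervals, which cover counting error only and not the spread between mice. An assay was counted as different in share at 20 percentage points or more, and in value at 1 cycle or more where both days had at least 10 detected cells.

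By day 7, the transcripts of receptors for interleukin 2, of the chemokine receptor Cxcr3 and of the lectin Lgals1 were detected less often than at day 5. The chemokine Ccl5, the effector factor Zeb2, the inhibitory receptor Klrc1 and the memory-linked genes Tcf7 and Il7r were found in more cells. These rises were smaller, at most 17.0 points. Of the 95 assays, 5 had a share at least 20 points lower at day 7 (5.26%) and 0 had one at least 20 points higher (0%). At a size of 10 points, 13 were lower (13.7%) and 6 were higher (6.32%). Over all 95 assays the median difference was 0 points, with 43 lower (45.3%), 37 higher (38.9%) and 15 equal, and the differences ran from -31.5 to 17.0 points. Of the equal ones, 12 were at 0 on both days, and the others, R18s, Actb and Gapdh, were found in every cell. Over the assays found on either day the median was -0.649 points. A cell had a median of 19.0 assays above 0 at day 5 (range 9 to 35) and 17.0 at day 7 (range 8 to 34).

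The columns of each day were also divided by their order in the table into an earlier and a later part, 77 and 77 cells at day 5 and 67 and 67 at day 7. The parts are not replicates, and the labels do not say what the order stands for. Within day 5, 7 assays were at least 20 points apart between the parts, among them Thy1, Il2rb, Ifngr1 and Stat4, all lower in the later columns. Within day 7 this held for 1 assay, Cd28, with 25.4% in earlier and 62.7% in later columns. The median number of assays per cell was 21.0 in the earlier and 16.0 in the later day 5 columns, and 17.0 in both parts of day 7. The number of assays 20 points apart between the days was thus no larger than that within day 5. For this reason the genes with the largest differences are given in all 4 parts, and the 4 pairings of a day 7 part with a day 5 part give the span of its difference. Both day 7 parts lay below both day 5 parts for 21 assays (22.1%) and above both for 12 (12.6%). No assay was 20 points apart in all 4 pairings. The genes named below were chosen for their difference over these same cells, which makes it likelier that their parts do not overlap. A lack of overlap is therefore a description and no separate support.

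The upstream sequences of 4 of the genes are shown to place the results on the genome. They were chosen by rule, as the pair with the largest negative and the pair with the largest positive differences in share among genes with 1 start site in the RefSeq table of mouse GRCm38.p6. Each is the 250 bases before the start, 5′ to 3′ on the strand of the gene, with matches to 4 short motifs in capitals. Cxcr3 is at chrX:101734148-101734397 on the minus strand, Il2ra at chr2:11642542-11642791 on the plus strand, Il7r at chr15:9529877-9530126 on the minus strand and Klrc1 at chr6:129678974-129679223 on the minus strand.
Cxcr3: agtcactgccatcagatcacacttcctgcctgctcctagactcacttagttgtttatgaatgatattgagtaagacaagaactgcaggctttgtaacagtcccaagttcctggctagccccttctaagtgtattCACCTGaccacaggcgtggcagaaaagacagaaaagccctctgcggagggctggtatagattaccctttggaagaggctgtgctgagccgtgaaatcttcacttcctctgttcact
Il2ra: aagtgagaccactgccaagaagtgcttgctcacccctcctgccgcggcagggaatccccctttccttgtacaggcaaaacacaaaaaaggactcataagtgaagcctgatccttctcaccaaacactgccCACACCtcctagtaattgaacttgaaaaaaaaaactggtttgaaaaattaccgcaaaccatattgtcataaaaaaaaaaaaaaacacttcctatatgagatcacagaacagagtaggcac
Il7r: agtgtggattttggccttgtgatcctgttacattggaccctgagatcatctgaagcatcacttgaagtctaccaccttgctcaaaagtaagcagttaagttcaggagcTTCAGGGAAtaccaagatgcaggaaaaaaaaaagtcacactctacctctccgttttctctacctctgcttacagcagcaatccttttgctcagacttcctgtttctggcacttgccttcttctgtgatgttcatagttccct
Klrc1: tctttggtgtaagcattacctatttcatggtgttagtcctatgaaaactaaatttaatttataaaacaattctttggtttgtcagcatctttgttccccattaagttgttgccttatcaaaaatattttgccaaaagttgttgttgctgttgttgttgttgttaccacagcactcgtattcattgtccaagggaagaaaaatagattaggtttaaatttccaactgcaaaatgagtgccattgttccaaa
The Cxcr3 window held the E-box CACCTG, the letters bound by ZEB factors, starting 116 bases before the start. The Il2ra window held CACACC, the other strand of the T-box core GGTGTG, 120 bases before the start. The Il7r window held TTCAGGGAA, a match to the STAT motif TTCNNNGAA, 142 bases before the start. The Klrc1 window held none of the 4 in the letters searched. The TCF/LEF motif was searched only as CTTTGA, which was in none of the 4 windows. Other forms of it, such as CTTTGT, were not searched, and the Cxcr3 and Klrc1 windows hold those letters. All motifs were searched on both strands, and the shares of the 32851 windows in that table with a match were 17.2% for CACCTG, 16.3% for GGTGTG, 7.02% for TTCNNNGAA and 13.8% for CTTTGA. The E-box and T-box motifs can overlap each other. A match is a run of letters only, and binding was not measured.

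Cxcr3, the receptor for interferon-induced chemokines, had the largest difference in share. Its transcript was detected in 106 of 154 day 5 cells, 68.8% (60.9 to 76.0), and in 50 of 134 day 7 cells, 37.3% (29.1 to 46.1), a difference of -31.5 points. The earlier and later parts held it in 76.6% and 61.0% of cells at day 5 and in 41.8% and 32.8% at day 7. The parts did not overlap, and the 4 pairings ran from -43.8 to -19.2 points. The median value in detected cells was 17.5 at day 5 and 16.0 at day 7, a difference of -1.41 cycles, with pairings from -1.75 to -1.01. Fewer cells had a detected transcript, and the deposited value in those that had it was lower. These values are not normalized, and the medians of Actb and Gapdh, found in every cell, also differed by -0.79 and -1.06 cycles. Of the other homing receptors measured, Ccr7, which guides T cells into lymph nodes, was found in 5.19% and 2.24% of cells. All 5 measured members of the homing receptor list had a lower share at day 7, with a median of -2.96 points. Among all 95 assays, 45.3% had a lower share.

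The receptor chains for interleukin 2 came next. Il2ra, the chain that gives high affinity and appears on activation, was found in 59 day 5 cells, 38.3% (30.6 to 46.5), and in 15 day 7 cells, 11.2% (6.40 to 17.8), a difference of -27.1 points. Its shares in the parts were 33.8% and 42.9% at day 5 and 5.97% and 16.4% at day 7, with no overlap and pairings from -36.9 to -17.3 points. Its median in detected cells was 15.7 at day 5 and 14.3 at day 7, -1.34 cycles, with pairings from -1.85 to 0.48. Il2rb, the chain shared with the interleukin 15 receptor, was found in 108 cells, 70.1% (62.2 to 77.2), at day 5 and in 58, 43.3% (34.8 to 52.1), at day 7, a difference of -26.8 points. The day 5 parts stood at 80.5% and 59.7% and the day 7 parts at 49.3% and 37.3%, again apart, with pairings from -43.2 to -10.5 points. Its median was 16.8 at day 5 and 15.7 at day 7, -1.08 cycles. Both chains were detected together in 27.3% of day 5 and 4.48% of day 7 cells. Il2 itself was at 0 in both assays on both days. Ifngr1, the ligand-binding chain of the interferon gamma receptor, was found in 57.1% (48.9 to 65.1) and 36.6% (28.4 to 45.3), a difference of -20.6 points. Its parts overlapped, with 75.3% and 39.0% at day 5 against 29.9% and 43.3% at day 7, so that the pairings ran from -45.5 to 4.32 points.

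Lgals1, which encodes the lectin galectin 1, was found in 152 day 5 cells, 98.7% (95.4 to 99.8), and in 100 day 7 cells, 74.6% (66.4 to 81.7), a difference of -24.1 points. The shares were 100% and 97.4% in the day 5 parts and 77.6% and 71.6% in the day 7 parts. The median value in detected cells was 15.9 at day 5 and 6.38 at day 7, a difference of -9.54 cycles. That median also moved within each day, from 12.2 to 18.1 between the earlier and the later columns of day 5 and from 4.85 to 10.5 between those of day 7. In the plot of values by cell the earlier and later parts, cut at the midpoint of the columns, overlapped on both days. A first and a second stretch were also taken, with the cut placed where the assays jointly differed most, so it was fitted to these data. The Lgals1 median was then 12.1 in the first 71 and 18.1 in the other 83 day 5 columns. At day 7 it was 4.84 in the first 75 and 10.5 in the other 59. In the earlier and later columns alike the day 7 median was the lower one, but the pairings ran from -13.29 to -1.78 cycles, so the size of the difference in value varied with column order, whose part in it was not tested. Taking only values above 12, a Ct of 28 on the inferred scale, 76.6% of day 5 and 7.46% of day 7 cells held Lgals1.

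**Figure D1:**
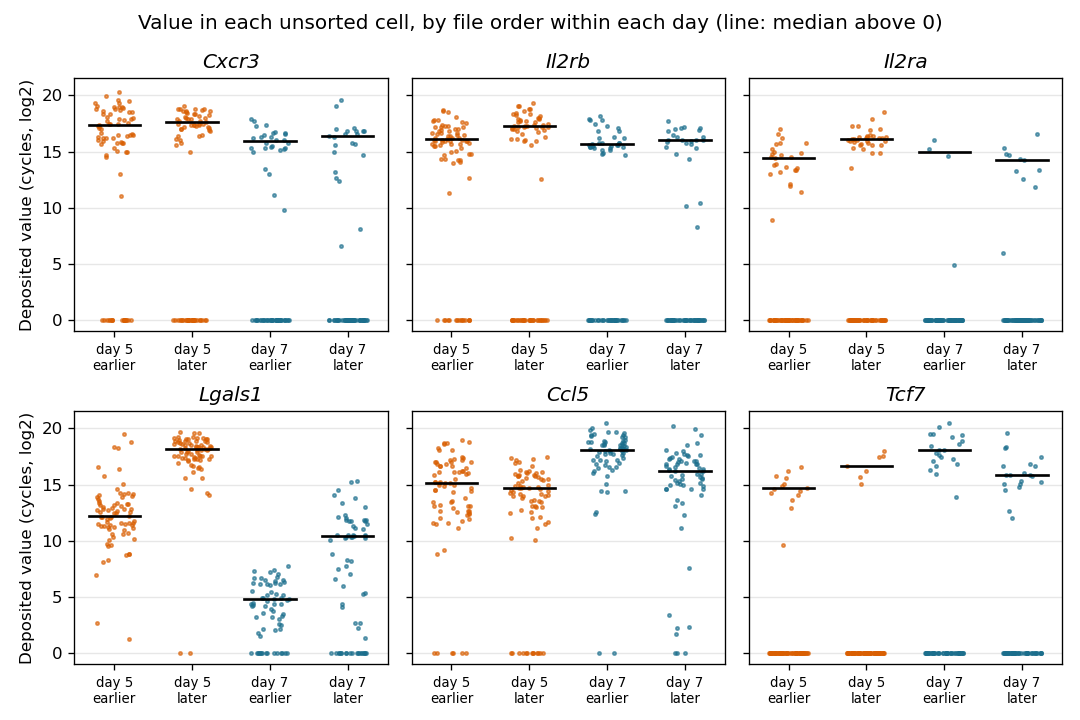
Deposited value (cycles, log2 scale) of 6 transcripts in each unsorted cell, with 0 for no detection, by earlier and later table columns of day 5 (orange) and day 7 (blue), and a line at the median of the values above 0. Lgals1 shifts within each day (medians 12.2 and 18.1 at day 5, 4.85 and 10.5 at day 7), while Cxcr3 is at 0 in more day 7 cells in both parts.

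The transcripts with the lower shares were counted together in each cell. Of the 5 genes at least 20 points lower, a cell held a median of 3.00 at day 5 and 2.00 at day 7. All 5 were found in 13 of 154 day 5 cells (8.44%) and in 0 of 134 day 7 cells, which allows a share of up to 2.24% by a floor of 3 cells. In 59 day 5 cells (38.3%) and 13 day 7 cells (9.70%) 4 of them were found. These counts describe the genes chosen for their difference and support nothing further.

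Smaller differences of at least 10 points in the lower direction included effector and signalling genes. Gzmb, the granule protease of cytotoxic cells, was found in 37 day 5 cells, 24.0% (17.5 to 31.6), and in 10 day 7 cells, 7.46% (3.64 to 13.3). Its parts were 28.6% and 19.5% against 10.4% and 4.48%, and its median in detected cells was 15.5 against 13.6, -1.88 cycles. Serpinb9, an inhibitor that shields the cell from its own granzyme B, was found in 18.8% and 5.97%. Both members of this protease and inhibitor pair were thus detected in fewer day 7 cells. Prdm1, the factor Blimp-1 of terminal effector differentiation, was found in 20.8% (14.7 to 28) and 9.70% (5.27 to 16.0), with a median of 16.2 on both days. Both of its day 5 parts were at 20.8%, above the 11.9% and 7.46% of day 7. Rela, a subunit of NF-kappa-B, was found in 42.2% and 24.6%, with parts of 37.7% and 46.8% against 20.9% and 28.4%. Mapk14, the p38 kinase, was found in 27.3% and 14.9%, the ribosomal protein gene Rpl35 in 24.7% and 8.21%, and the surface protein gene Thy1 in 65.6% and 50.0%. The median of Thy1 differed by -3.11 cycles, but its pairings reached from -4.86 to -0.05 cycles and from -30.4 to -0.814 points in share. With the later day 5 columns against all of day 7, its share differed by -4.55 points.

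**Figure D2:**
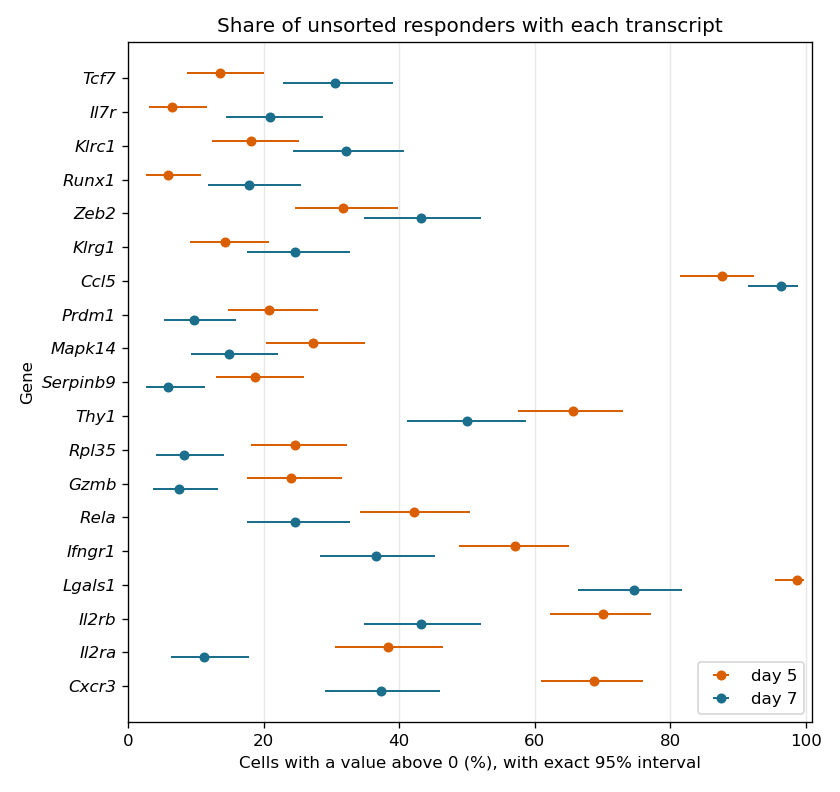
Share of unsorted responders with a value above 0 (%) at day 5 (orange) and day 7 (blue) for 19 genes, with exact 95% intervals that cover counting error. Cxcr3 (68.8% and 37.3%), Il2ra, Il2rb and Lgals1 show the widest gaps downward, and Tcf7 (13.6% and 30.6%) the widest upward.

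In the other direction, Tcf7, which encodes the factor TCF-1 of naive and memory cells, had the largest positive difference in share. It was found in 21 day 5 cells, 13.6% (8.64 to 20.1), and in 41 day 7 cells, 30.6% (22.9 to 39.1), a difference of 17.0 points. Its parts were 18.2% and 9.09% at day 5 and 31.3% and 29.9% at day 7, with no overlap and pairings from 11.7 to 22.3 points. Its median in detected cells was 15.0 and 16.9, 1.83 cycles higher at day 7, with pairings from -0.74 to 3.40. Il7r, the receptor chain for the survival cytokine interleukin 7, was found in 10 cells, 6.49% (3.16 to 11.6), and in 28, 20.9% (14.4 to 28.8). Its day 5 parts, 10.4% and 2.60%, lay below its day 7 parts, 16.4% and 25.4%. Other memory-linked factors had smaller differences or lay the other way. Foxo1, which drives Il7r transcription in resting T cells, was found in 26.6% and 32.8%, Foxp1, a factor of quiescent T cells, in 13.6% and 16.4%, and Lef1, the partner of TCF-1, was lower at 11.7% and 2.24%. Klf2, a factor of circulating T cells, was found in 93.5% and 89.6% of cells. Of the 12 naive and memory factors measured, 1 was at least 10 points higher and 0 were at least 10 points lower, and the median was 0.174 points. Over all 95 assays, 6.32% were that much higher and 13.7% that much lower.

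Some effector genes were found in still more cells at day 7. Ccl5, a chemokine made in quantity by effector and memory CD8+ T cells, was found in 135 day 5 cells, 87.7% (81.4 to 92.4), and in 129 day 7 cells, 96.3% (91.5 to 98.8). Its median in detected cells was 14.9 and 17.1, 2.24 cycles higher at day 7, and every pairing of the parts was higher, by 1.03 to 3.35 cycles. Zeb2, a factor of terminal effector cells, was found in 49 cells, 31.8% (24.6 to 39.8), and in 58, 43.3% (34.8 to 52.1), with parts of 36.4% and 27.3% against 40.3% and 46.3%. Klrc1, an inhibitory natural killer cell receptor also carried by activated CD8+ T cells, was found in 18.2% (12.4 to 25.2) and 32.1% (24.3 to 40.7). Its day 5 parts, 27.3% and 9.09%, lay below the 31.3% and 32.8% of day 7. Klrg1, a surface receptor that marks short-lived effectors, had 14.3% (9.17 to 20.8) and 24.6% (17.6 to 32.8), but its parts overlapped, with 19.5% and 9.09% against 32.8% and 16.4%. Runx1, a Runt-family factor, was found in 5.84% and 17.9% of cells. Eomes, a T-box factor, was lower at 31.8% and 22.4%, and Tbx21, which encodes the related T-bet, was found in 1 of 154 and 0 of 134 cells. Of the 12 effector factors measured, 2 were at least 10 points higher, Zeb2 and Runx1, and 2 were at least 10 points lower, Prdm1 and Rela, with a median of -0.165 points. Among all 95 assays, 6.32% were that much higher and 13.7% that much lower.

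Most of the remaining effector and activation genes were rare on both days, while Stat4, a signal carrier of the interleukin 12 receptor, was found in 25.3% and 28.4% and had overlapping parts, 37.7% and 13.0% against 22.4% and 34.3%. Among the chemokines, Ccl3 was found in 5 day 5 cells and 11 day 7 cells, Ccl4 in 5 and 12 and Xcl1 in 0 and 1, and Cxcl10 was at 0 in both. Ifng, which encodes interferon gamma, was found in 3.25% and 3.73% of cells. The activation genes Cd69 (5.84% and 3.73%), Tnfrsf9 (3.90% and 2.99%), Irf4 (5.84% and 2.99%) and Myc (4.55% and 2.99%) were each detected in few cells at both times. The inhibitory receptor gene Lag3 was found in 5 cells at day 5 and in 0 at day 7. Of the 7 activation and inhibitory receptor genes measured, 5 were lower and 2 were higher in share, none by 10 points, and the median was -0.911 points. Over all 95 assays, 45.3% were lower and 38.9% were higher. Cd28, the costimulatory receptor, was found in 42.9% and 44.0%, with the gap between the day 7 parts given above. Id2, an effector factor, was found in 0 day 5 cells, which allows a share of up to 1.95% by the same floor, and in 8 day 7 cells, 5.97%, at a median value of 3.58, below 12. All 8 were among the later columns, where its share was 11.9%. In sorted cells its share went from 58.9% to 1.61% in Tmp, a difference of -57.3 points, and from 0% to 5.62% in Tsle. These values were low too, with a median of 7.93 in the 53 day 5 Tmp cells that held it. The 1 day 7 Tmp cell was at 2.31 and the day 7 Tsle median was 9.43, so all of these lay below 12. Id3 was at 0 on both days.

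By value alone, 43 assays had at least 10 detected cells on both days. Of these, 8 had a median at least 1 cycle higher at day 7 (18.6%) and 14 had one at least 1 cycle lower (32.6%). In 4 of the 8 and 9 of the 14, all 4 pairings of the parts had the same direction. The 4 higher ones were Ccl5, Foxp1, the zinc finger factor Zfp281 and the ribosomal RNA R18s. Between the parts of day 5 alone, 17 of 28 medians were at least 1 cycle apart, and between those of day 7, 13 of 29, so a difference of this size was common within a day. The transcripts found in every cell moved in unlike ways, with R18s 1.05 cycles higher at day 7, Actb lower at 20.9 and 20.1, and Gapdh -1.06 cycles. With each cell centred on Actb and Gapdh, the split became 13 higher and 5 lower. Share and value had the same direction in all 4 pairings for Cxcr3, Il2rb, Lgals1, Gzmb, Thy1 and Ccl5. The smallest differences in median among these pairings were -0.10 cycles for Il2rb, -0.09 for Gzmb and -0.05 for Thy1. For Il2ra and Tcf7 the direction was the same over all cells but not in every pairing. In the mean level over all cells, which counts the value above 12 and sets undetected cells to 0, Ccl5 and Tcf7 were at least 1 cycle higher (2.11% of 95 assays) and 7 were at least 1 cycle lower (7.37%). Ccl5 went from 2.52 to 4.66, Cxcr3 from 3.69 to 1.37 and Lgals1 from 3.41 to 0.12.

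Pairs of transcripts were then counted in single cells. At day 5, Cxcr3 was found in 31 of 49 cells with Zeb2 (63.3%, 48.3 to 76.6) and in 75 of 105 without (71.4%, 61.8 to 79.8). At day 7, it was found in 9 of 58 cells with Zeb2 (15.5%, 7.35 to 27.4) and in 41 of 76 without (53.9%, 42.1 to 65.5). In the earlier day 7 columns the shares were 14.8% and 60.0%, and in the later ones 16.1% and 47.2%. The cells with and without Zeb2 had a median of 16.5 and 17.0 assays at day 7. Most of the day 7 cells that still held Cxcr3 were thus cells in which Zeb2 was not detected, in both parts of the columns. In sorted Tsle cells of day 7 the shares were 20.9% and 32.6%, and in the 12 sorted Tmp cells with Zeb2 and the 50 without they ran the other way, 83.3% and 58.0%. At day 7, Klrg1 was found in 3 of 41 cells with Tcf7 (7.32%) and 30 of 93 without (32.3%), while at day 5 it was found in 14.3% of both. Il7r was found in 16 of 41 day 7 cells with Tcf7 (39.0%, 24.2 to 55.5) and in 12 of 93 without (12.9%, 6.85 to 21.5), although the cells with Tcf7 had a median of 19.0 assays against 16.0. This last pair was examined after the values had been seen. In sorted day 7 Tmp cells Il7r was found in 7.69% of cells with Tcf7 and 27.8% of those without. Almost all day 7 cells of either kind held Ccl5, 37 of 41 with Tcf7 and 92 of 93 without.

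The sorted populations give the same contrast in other cells, 90 at day 5 and 62 at day 7 for Tmp, and 79 and 89 for Tsle. Over all 95 assays, 52.6% were lower and 29.5% higher at day 7 in Tmp, and 52.6% were lower and 24.2% higher in Tsle. Of the 5 genes lower by 20 points, 4 were lower in Tmp and all 5 in Tsle. Of the 13 lower by 10 points, 10 were lower in Tmp and 13 in Tsle. Among the 6 higher by 10 points, 5 were higher in Tmp, each by less than 10 points, and 3 in Tsle. Klrc1 differed by 9.43 points in Tmp and -6.64 in Tsle, Il7r by 2.69 and 0.981, and Runx1 by 0.394 and -4.65. Il2rb differed by -19.2 points in Tmp and -31.3 in Tsle, and Il2ra by -3.37 and -28.8. Cxcr3 was higher in Tmp at day 7, at 51.1% and 62.9%, and lower in Tsle, at 44.3% and 27.0%. Tcf7 was found in 38.9% and 41.9% of Tmp and in 0% and 3.37% of Tsle cells. Ccl5 was found in 74.4% and 95.2% of Tmp and in 94.9% and 97.8% of Tsle cells. Its median went from 12.1 to 15.7 in Tmp, 3.69 cycles higher, and from 8.45 to 16.4 in Tsle, 7.97 cycles higher. The day 5 Tsle median was thus below 12, while that of day 5 unsorted cells was 14.9, and the reason was not tested. Zeb2 differed by 3.80 points in Tmp and 12.9 in Tsle, and Klrg1 by -1.11 and -12.4. Lgals1 was found in fewer day 7 cells in both, by -33.7 and -12.1 points, but its median in detected cells was higher at day 7, by 0.70 cycles in Tmp and 3.77 in Tsle, opposite to the unsorted cells. The median number of assays per cell was also lower at day 7, 14 against 16 in Tmp and 13 against 17 in Tsle, and its part in the lower shares was not tested. The labels do not describe the gates of Tmp and Tsle, and Klrg1 and Il7r may have been among them.

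**Figure D3:**
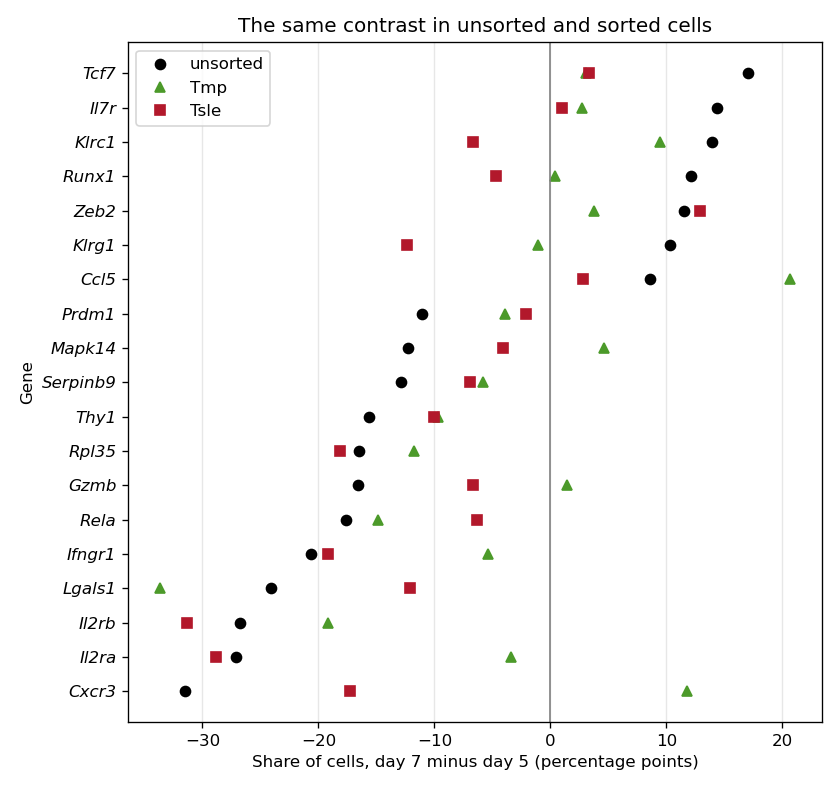
Difference in the share of cells with a value above 0, day 7 minus day 5 (percentage points), for 19 genes in unsorted (black circles), Tmp (green triangles) and Tsle cells (red squares). Il2rb, Rela and Lgals1 lie below 0 in all 3, while Cxcr3 lies at 11.8 in Tmp and below 0 in the other populations.

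Set beside naive and day 3 cells, the genes fall into separate courses. Ccl5 was found in 1.34% of naive, 3.50% of day 3, 87.7% of day 5 and 96.3% of day 7 cells, and Zeb2 in 1.34%, 5.59%, 31.8% and 43.3%. Klrc1 had 0%, 1.40%, 18.2% and 32.1%, and Klrg1 0%, 0.699%, 14.3% and 24.6%. These 4 had their highest share at day 7. Cxcr3 had 5.37%, 6.29%, 68.8% and 37.3%, Lgals1 4.70%, 18.2%, 98.7% and 74.6%, and Il2rb 19.5%, 44.1%, 70.1% and 43.3%, all with their highest share at day 5. Il2ra was highest at day 3, with 4.70%, 50.3%, 38.3% and 11.2%. Tcf7 was lowest at day 5, with 75.2%, 76.2%, 13.6% and 30.6%, and Il7r had 32.9%, 9.09%, 6.49% and 20.9%. The day 7 share of each lay between its day 5 share and its naive share. Day 3 cells came from recipients of 20000 transferred cells, so that point differs from the others in cell number as well as in time.

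**Figure D4:**
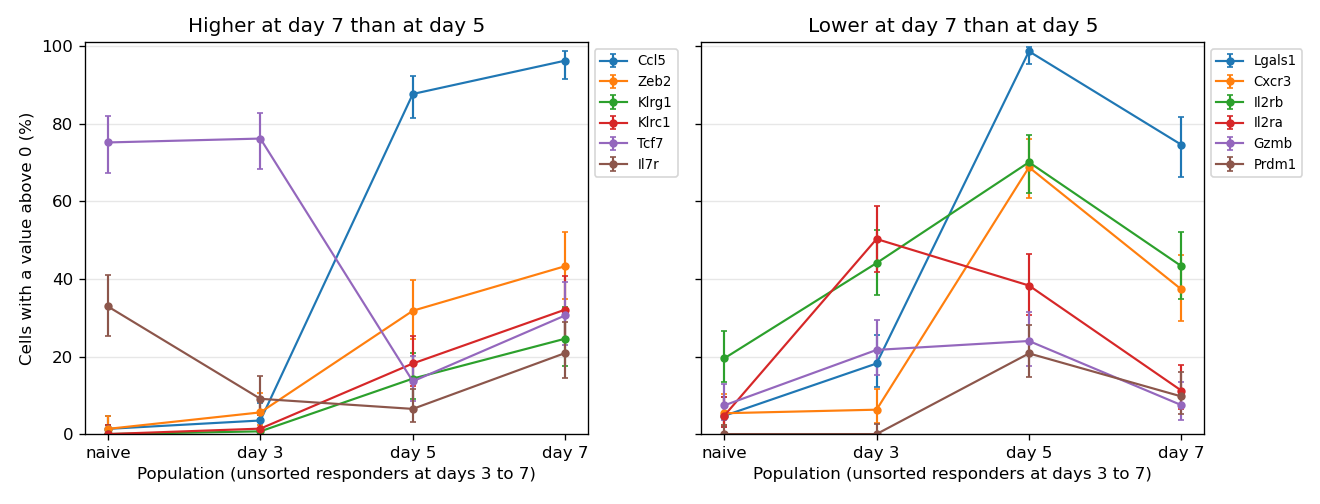
Share of cells with a value above 0 (%) in naive cells and in unsorted responders at days 3, 5 and 7, for 6 genes higher and 6 lower at day 7 than at day 5, with exact 95% intervals. Ccl5, Zeb2, Klrc1 and Klrg1 are highest at day 7, Tcf7 and Il7r are lowest at day 5, and Cxcr3, Lgals1 and Il2rb are highest at day 5.

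The identity of the cells and the number of assays per cell were checked beside these results. Ptprc was found in 99.4% and 97.0% of cells and Cd8a in 57.8% and 55.2%, while Cd4 and Foxp3 were at 0 on both days and Gata3, which CD8+ T cells also express, was found in 8 and 11 cells. Markers of B cells, myeloid cells and natural killer cells were not among the assays used. Cd44, one of the stained proteins, was found as transcript in 7.14% and 5.97% of cells. When only cells with 14 to 22 assays were taken, 113 at day 5 and 99 at day 7, the shares were 70.8% and 40.4% for Cxcr3, 38.1% and 12.1% for Il2ra, 68.1% and 43.4% for Il2rb, 99.1% and 75.8% for Lgals1, 15.0% and 31.3% for Tcf7, 6.19% and 23.2% for Il7r, 15.0% and 34.3% for Klrc1, 28.3% and 46.5% for Zeb2 and 87.6% and 97.0% for Ccl5. All 9 genes kept their direction among cells with a like number of detected assays. Day, mouse and array cannot be told apart with 1 sample a day.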

How the data were processed

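Single cells were sorted into a reverse transcription and preamplification mix, amplified for 18 cycles with all TaqMan assays in 1 pool, then diluted 5-fold and read on Fluidigm arrays with a BioMark instrument, per the labels' protocols. The authors deposited 1 table of log2 amounts on the scale of PCR cycles, which the labels call Ct and not normalized. The values were read as 40 minus Ct: the offset is inferred, and the sign rests on R18s and Actb having the highest values. Of the values above 0, 10.2% at day 5 and 19.1% at day 7 were at or below 12. No filter was applied to cells, and no other cell filter is given in the sources used here. No 2 of the cell columns were identical, and 83.4% of the table was 0.

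Shares, medians over detected cells, mean levels (value minus 12, undetected cells at 0) and exact 95% binomial intervals were computed with Python 3.11.15, numpy 2.4.6 and scipy 1.17.1, and checked on simulated data. Figures used matplotlib 3.10.9. The text names up to 12 assays in each direction past the size rules and members of 10 gene lists. The genes, lists and rules were chosen with earlier results of these data known. Some assays counted in the totals are not reported by name. Gene names were matched to RefSeq for 93 of 95 rows. Of the 19 genes at least 10 points apart, 14 had an entry in the promoter table. Alternatives were other detection limits, sizes, centrings, parts of the columns and cells with 14 to 22 assays.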

Additional observations from a re-analysis of the deposited data

Results flagged for a closer look

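Cxcr3 was found in more Tmp cells at day 7 than at day 5, by 11.8 points, while its difference in unsorted cells was -31.5 points. It was flagged because the same contrast had opposite directions in different populations. The difference between them was not tested, since each population is 1 sample.

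Klrg1 was found in fewer Tsle cells at day 7, a difference of -12.4 points, while its share in unsorted cells was 10.3 points higher. This was flagged for the same reason and was not tested either. Klrg1 may have been used to gate Tsle cells.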

How the results depend on the processing

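The count of shares at least 20 points higher at day 7, 0 as reported, became 1 with detection above 14, 6 at a size of 10 points, 4 with the later columns or the second stretch of columns alone, and 2 with the later day 5 columns against all of day 7. The count lower, 5 as reported, became 13 at 10 points, 1 at 30 points, and 8 with the earlier columns, the first stretch, or the earlier day 5 columns against all of day 7. Of these 5, 4 were lower in Tmp as reported and 2 in the earlier columns. Medians higher, 8 as reported, became 1 with the later columns, 2 with the second stretch, 3 with the later day 5 columns, 5 when centred on R18s and Actb, 13 when centred on Actb and Gapdh and 2 at a size of 2 cycles. Medians lower, 14 as reported, became 7 with the earlier columns, 8 with the first stretch, the earlier day 5 columns or at least 20 detected cells, 9 in cells with 14 to 22 assays, 5 when centred on Actb and Gapdh and 5 at 2 cycles. Mean levels higher, 2 as reported, became 4 and 1 with the earlier and later columns, 5 and 1 with the first and second stretch, 15 when centred on Actb and Gapdh, 1 with the limit at 14 and 8 with it at 0. Mean levels lower, 7 as reported, became 2, 3 and 19 under those last 3 settings. The difference in the median number of assays per cell, -2.00, became -4.00 with the earlier columns, the first stretch or the earlier day 5 columns, -1 in cells with 14 to 22 assays, 0 with the second stretch, and turned to 1.00 with the later columns or the later day 5 columns. Ifngr1 turned to 4.32 points with the later columns. The cause was not tested. The settings by stretch and by day 5 part were added after the data were seen. The cut between the stretches was placed where the columns of these data differed most, and the labels name no such boundary.

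Of 20 genes named by share, 18 kept their direction under all 11 alternatives for shares. The exceptions were Ifngr1 and 1 assay not reported by name. Differences ranged from -39.3 to -23.7 points for Cxcr3, -31.7 to -22.6 for Il2ra, -37.2 to -16.5 for Il2rb and -69.2 to -22.4 for Lgals1. They ran from 12.3 to 21.5 for Tcf7, 6.03 to 22.8 for Il7r and 1.09 to 25.5 for Klrc1. For Zeb2 they ran from 3.23 to 19.0 and for Ccl5 from 3.04 to 28.9. The lowest values of Klrc1, Zeb2 and Ccl5 came with the first stretch of columns alone. No paired analysis was possible because each day is 1 sample. The number of cells sets the counting error only, and the spread between mice was not measured.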
